A study of Homo sapiens with 4 samples.

Results

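Messenger RNAs of the cytoskeleton, of integrin adhesion and of the extracellular matrix were followed through depletion with an antibody against N1-methyladenosine (m1A) in HepG2 cells. The 67 genes were taken by symbol, with no measured value, from the 6434 genes of the authors' deposited table of gene-level values. Earlier results of these data were known when the symbols were chosen. The symbols were those of actins, actin-related proteins, Arp2/3 subunits, actin cross-linkers, myosins, tropomyosins, tubulins, integrins, collagens, laminins, other matrix proteins, cadherins and catenins. The 2 genes ITGB1BP1 and ITGB3BP, which code for proteins that bind integrins, were left out. RefSeq lists 234 protein-coding genes whose symbols fit, so tropomyosin, fibronectin, SPARC and ITGB1 transcripts, among others, were not analysed here.

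HepG2 is a line established from a human liver tumour, and all material came from cells of this line grown in DMEM with no drug or genetic change named in the labels. RNA that had been through 2 rounds of poly(A) enrichment was hybridised as such (the input, 2 arrays) or after the m1A antibody had been used to deplete it (the supernatant, 2 arrays). In the gene table, linear intensities stand in 4 columns, input A, input B, supernatant A and supernatant B, and the letters were not matched to the replicate numbers 1 and 2 of the arrays. Nothing in the labels says that the replicates were separate cultures, and p-values therefore cover the spread between columns only, which may be technical. Pairs of values below are given in the order A, B. The table sets 5210 genes with a single m1A peak (called one-peak genes) apart from 1224 genes without a peak (called non-m1A genes).

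Actin polymerises into filaments, and the Arp2/3 complex, built from ACTR2, ACTR3 and the ARPC subunits, starts new filaments as branches on old ones. Microtubules are assembled from alpha- and beta-tubulin on rings of gamma-tubulin and its partner proteins. Integrins, each a pair of an alpha and a beta chain, bind laminins, collagens and other matrix proteins outside the cell and are tied to actin inside it by talin, vinculin, paxillin and alpha-actinin, while cadherins join neighbouring cells and are tied to actin by catenins. In m1A a methyl group sits on the edge of adenosine that pairs with another base, and in mRNA the mark has been mapped most often near the start codon. The more copies of a transcript carry m1A, the lower its supernatant should be relative to its input.

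The number of arrays limits the precision of every value given here. Column medians of the one-peak genes were 216 in both inputs and 222 in both supernatants, and those of the 67 genes were 254 (input A), 281 (input B), 278 (supernatant A) and 292 (supernatant B). The gene table names no cell line. Of 21 markers of hepatocytes or HepG2, 2 were listed. The transcription factor gene FOXA1 had intensities of 85.0 and 128 in the inputs and 88.8 and 118 in the supernatants, while albumin, alpha-fetoprotein and the apolipoprotein genes of the list were not analysed here. Of 16 mesenchymal markers 3 were listed, COL1A1, CDH2 and VIM, with summed intensities of 6068 to 6770 in the inputs and 6166 to 6498 in the supernatants, nearly all from VIM. Of 8 muscle markers DES and MYLPF were listed, at sums of 35.9 to 46.2 and 41.6 to 44.7, of 8 leukocyte markers CD68, at 30.1 to 42.4 and 35.03 to 40.02, and of 5 endothelial markers none. Their part in the results below was not tested, and in bulk RNA fewer cells of a type and less RNA per cell cannot be told apart.

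The promoters of 3 of the genes are printed to show the motifs counted below, 1 gene each from the actins, the tubulins and the Arp2/3 complex. Each line gives 160 bases immediately upstream of the transcription start, 5′ to 3′ on the coding strand, from RefSeq (GRCh38.p14). Capitals mark CCAAT boxes, searched as CCAAT on either strand and so also read as ATTGG, and in ACTG1 a CArG box, the site known to be bound by serum response factor.
ACTG1, chr17:81512800-81512959, minus strand: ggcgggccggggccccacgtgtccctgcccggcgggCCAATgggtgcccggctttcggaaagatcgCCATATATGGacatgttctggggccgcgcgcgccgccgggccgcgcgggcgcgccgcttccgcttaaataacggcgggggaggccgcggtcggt
TUBA1A, chr12:49189081-49189240, minus strand: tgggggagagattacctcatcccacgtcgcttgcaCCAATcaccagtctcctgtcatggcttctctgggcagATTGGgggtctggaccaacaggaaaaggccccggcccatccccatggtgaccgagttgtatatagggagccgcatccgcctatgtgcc
ARPC5L, chr9:124861970-124862129, plus strand: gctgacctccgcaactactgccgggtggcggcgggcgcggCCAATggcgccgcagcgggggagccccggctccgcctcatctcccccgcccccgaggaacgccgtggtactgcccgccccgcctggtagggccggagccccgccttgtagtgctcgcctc

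In ACTG1 the CCAAT box lay 124 to 120 bases and the CArG box 94 to 85 bases upstream of the start. TUBA1A had CCAAT boxes on both strands, at 125 to 121 and at 88 to 84 bases, and ARPC5L had a single one at 120 to 116 bases. Of the 67 genes, 55 matched a promoter by symbol. A CArG box was found within 250 bases upstream of the start in 4 of them, ACTG1, ACTN1, MYO1E and TUBG2, which is 7.27% against 1.46% of the 4926 matched genes of the table and 1.44% of 27305 RefSeq genes. A CCAAT box was found in 26 of them (47.3%), against 41.9% of the matched genes and 37.0% of RefSeq genes. The same letters can count for both motifs, as they do in TUBG2. The first 50 transcribed bases had a median GC content of 69.3% in the group and of 66.0% in the matched genes of the table. These matches describe sequence and are not binding sites.

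In the group, 60 of 67 genes were one-peak genes (89.6%, against 81.0% of all genes in the table). The 7 non-m1A genes were ACTR1B, ITGA2B, MYL3, MYL5, MYL10, TLN2 and TUBD1. The median gene of the group had an input intensity at the 63.4th percentile of the table, a description of brightness only, since probes of different genes cannot be compared as amounts. Non-m1A genes were mostly dim, with a median percentile of 10.1 over the table, against 56.7 in all one-peak genes and 64.7 in the 60 of the group. Whether the share of one-peak genes in the group goes with its brightness was not tested. MYL3, MYL10 and ITGA2B were dimmer than every one-peak gene, the dimmest of which had a mean intensity of 36.1, and all 67 genes were tested.

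Supernatant was first set against input. None of the 67 genes passed at an adjusted p under 0.05 (limma, Benjamini-Hochberg over all 6434 genes, of which 0.0155% passed), and the adjusted p of each rounded to 1.00. At an unadjusted p under 0.05, none of the 67 was lower (against 0.622% of all genes) and 2 were higher, COL1A1 and MYL5 (against 1.4%). For a single gene, the smallest two-sided p of an exact permutation test of 2 columns against 2 is 0.33. The median log2 change, supernatant minus input, was 0.04 in the group and 0.04 over all genes.

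Both supernatant values lay below both input values in 3 genes, ARPC2, ARPC5L and TUBB6, which is 4.48% of the group against 6.37% of all genes. They lay above both in 8 genes, ACTR3B, COL1A1, CTNNA1, CTNNAL1, ITGA6, LAMA3, MYL5 and TUBD1, or 11.9% against 16.6%. With each column recentred on the median of the non-m1A genes these counts were 9 and 4 (17.2% and 6.71% of all genes), and with quantile normalization 4 and 5 (12.1% and 9.11% of all genes). A gap of at least 0.25 on the log2 scale between the groups was seen in 0 genes on the lower side (0.435% of all genes) and in 1 on the higher side, COL1A1 (0.793% of all genes).

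**Figure D1:**
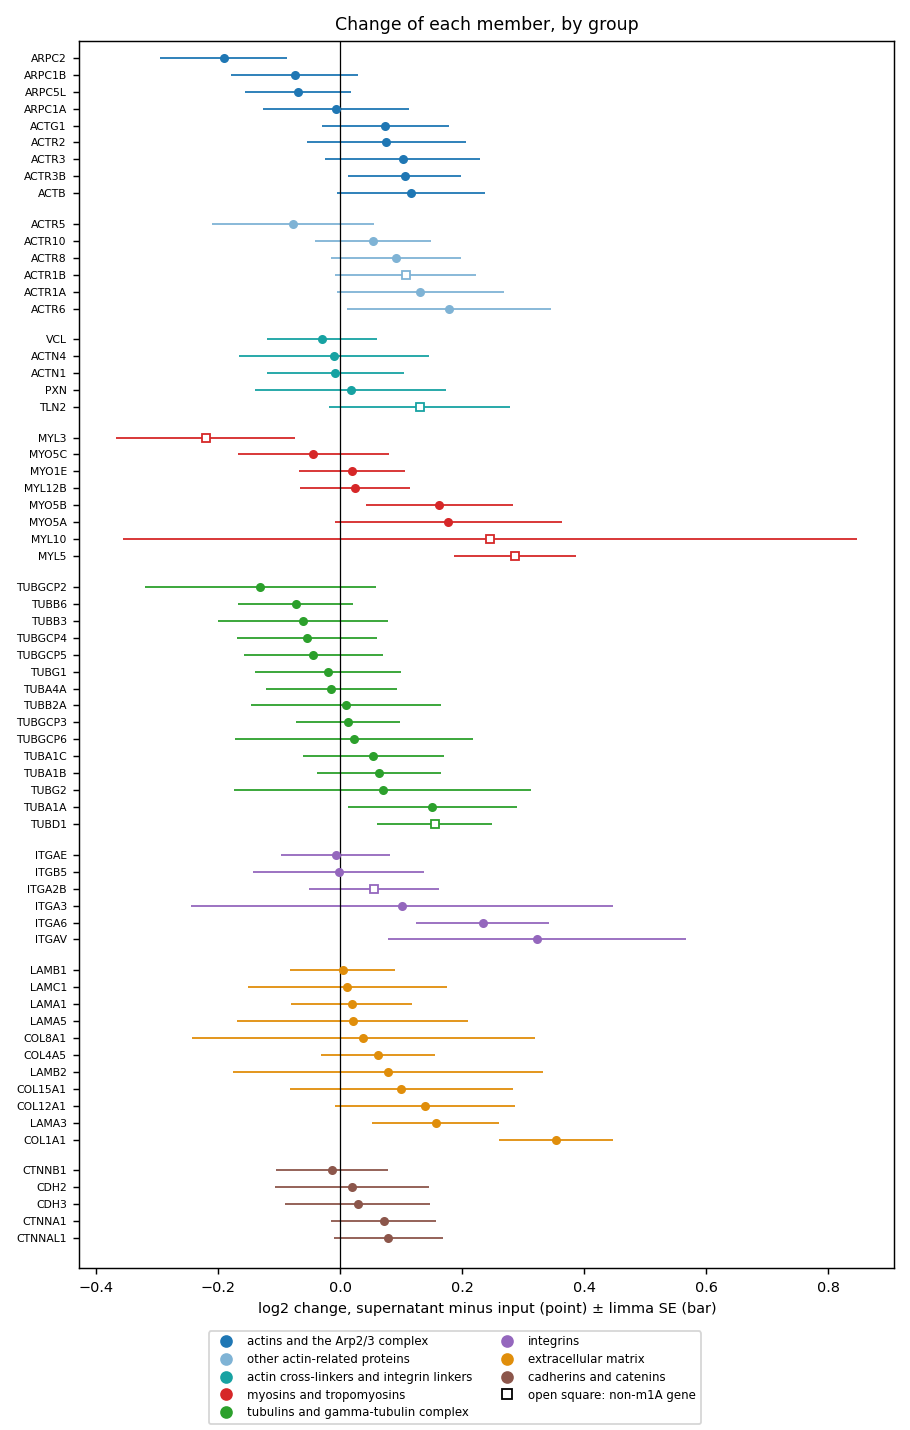
Log2 change, supernatant minus input, of 65 of the 67 genes on the horizontal axis (point, with limma's standard error as the bar), grouped by role; open squares are non-m1A genes. Most bars cross 0, ARPC2 and MYL3 have the lowest points at -0.19 and -0.22, and COL1A1 and ITGAV have the highest at 0.35 and 0.32.

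The actins and the Arp2/3 complex were represented by 9 genes, all one-peak genes, and none passed. ARPC2, a core subunit of the Arp2/3 complex, had intensities of 3161 and 3457 in the inputs and 2771 and 3027 in the supernatants. Both supernatants were lower than both inputs, and each letter gave the same ratio of supernatant to input, 0.877 for A and 0.876 for B. The log2 change of ARPC2 was -0.19 ± 0.10 (limma's SE, as for all log2 changes below), and it kept its sign with each column left out in turn, from -0.26 to -0.13. ARPC5L, a variant of the smallest subunit family of the complex, stood at 797 and 785 in the inputs and 769 and 739 in the supernatants, a log2 change of -0.07 ± 0.09 with the groups apart by 0.03. The related subunits ARPC1B and ARPC1A had log2 changes of -0.07 ± 0.10 and -0.01 ± 0.12, with overlapping columns.

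The actins themselves and the actin-related subunits lay on the other side of 0. ACTB, the beta-actin of non-muscle cells, had intensities of 4616 and 5197 in the inputs and 4963 and 5682 in the supernatants. Column B was higher than column A in both states, and the groups overlapped, at a log2 change of 0.12 ± 0.12. ACTG1, the gamma-actin of non-muscle cells, stood at 5637 and 4976 in the inputs and 5608 and 5542 in the supernatants. Input A was its highest value and input B its lowest, so the supernatants lay between the inputs, and the log2 change was 0.07 ± 0.10, or -0.02 without input B. ACTR3B, a close relative of the Arp2/3 subunit ACTR3, had 124 and 122 in the inputs and 137 and 127 in the supernatants, a log2 change of 0.11 ± 0.09 with no overlap. ACTR2 and ACTR3 had log2 changes of 0.08 ± 0.13 and 0.10 ± 0.13, with overlapping columns.

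The 4 ARPC subunits had a median log2 change of -0.07 (-0.14 recentred, -0.10 quantile normalized, -0.14 without input A and -0.04 without input B). The 5 genes ACTB, ACTG1, ACTR2, ACTR3 and ACTR3B had one of 0.10 (0.04 recentred, 0.07 quantile normalized, 0.16 without input A and -0.02 without input B). This split was described with the values known, and the difference was not tested.

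Of the other actin-related proteins, 6 were measured and none passed. ACTR5 and ACTR8 belong to a nuclear complex that remodels chromatin, ACTR6 to another, and ACTR1A, ACTR1B and ACTR10 to dynactin, the activator of the microtubule motor dynein. ACTR6 had intensities of 244 and 185 in the inputs and 254 and 227 in the supernatants. The A column was higher in both states and the groups overlapped, at a log2 change of 0.18 ± 0.17, which was -0.02 without input B. ACTR1A stood at 118 and 135 in the inputs and 126 and 151 in the supernatants, with B above A in both states and a log2 change of 0.13 ± 0.14. ACTR5 stood at 118 and 98.2 in the inputs and 108 and 96.5 in the supernatants, lower in the supernatant of each letter although the groups overlapped. Its log2 change of -0.08 ± 0.13 was the only one below 0 among these 6 genes, and it was 0.05 without input A.

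ACTR10 had 485 and 444 in the inputs and 476 and 488 in the supernatants. Its supernatant was below its input in letter A and above it in letter B, and the log2 change was 0.05 ± 0.10, with a change of -0.01 after recentring. ACTR8 and ACTR1B had log2 changes of 0.09 ± 0.11 and 0.11 ± 0.12. The median of the 6 genes was 0.10, with 0.03 after recentring, 0.01 without input B and 0.03 without supernatant B.

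The proteins that cross-link actin or tie it to integrins gave 6 genes with a median log2 change of 0.00, and none passed. That median was -0.09 without input A and 0.13 without input B. VCL codes for vinculin, which binds talin and actin at adhesion sites. Its intensities were 488 and 514 in the inputs and 481 and 501 in the supernatants, a log2 change of -0.03 ± 0.09 with overlapping groups. PXN codes for the adaptor paxillin and stood at 171 and 225 in the inputs and 197 and 200.3 in the supernatants. Its inputs lay on either side of both supernatants, and the log2 change was 0.02 ± 0.16. TLN2, a talin gene without an m1A peak, had 35.8 and 36.5 in the inputs and 34.9 and 44.9 in the supernatants, so that supernatant B alone stood apart. Its log2 change was 0.13 ± 0.15, and without supernatant B it was -0.05. ACTN1 and ACTN4, the alpha-actinins of non-muscle cells, were both at -0.01, with standard errors of 0.11 and 0.16.

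Myosins and their light chains gave 9 genes, none of which passed, and no tropomyosin was measured. MYL5, a regulatory light chain gene without an m1A peak, had intensities of 44.8 and 44.9 in the inputs and 51.8 and 57.8 in the supernatants. The inputs were nearly equal, and both supernatants were higher. The log2 change was 0.29 ± 0.10 (unadjusted p = 0.0396, limma), between 0.21 and 0.37 with a column left out and 0.17 with 32 added to every intensity. MYL3, the light chain of slow muscle and ventricle, was dim at 24.9 and 22.8 in the inputs and 18.2 and 22.99 in the supernatants. Supernatant A was its lowest value and the groups overlapped, at a log2 change of -0.22 ± 0.15.

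MYL10, another light chain gene, was listed near the bottom of the table, at 1.6 and 5.52 in the inputs and 3.53 and 3.52 in the supernatants. The supernatants were alike and the inputs more than 3-fold apart, so its log2 change of 0.25 ± 0.60 was -0.65 without input A. MYO5A, an unconventional myosin that carries vesicles along actin, stood at 58.1 and 41.5 in the inputs and 53.4 and 57.8 in the supernatants. Input B was the lowest of the 4 values, and the log2 change of 0.18 ± 0.19 was -0.06 without it. MYO5C, of the same family, had 142 and 169.9 in the inputs and 146 and 156 in the supernatants, a log2 change of -0.04 ± 0.12 with both supernatants between the inputs. MYL12B, the regulatory light chain of non-muscle myosin, had 3455 and 3279 in the inputs and 3357 and 3492 in the supernatants, overlapping at 0.02 ± 0.09. MYO1E and MYO5B had log2 changes of 0.02 ± 0.09 and 0.16 ± 0.12.

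Tubulins and the gamma-tubulin complex were the largest group, with 15 genes and none that passed. TUBA1A, an alpha-tubulin prominent in neurons, had intensities of 312 and 252 in the inputs and 324 and 299 in the supernatants. Each supernatant was above the input of its letter, but the groups overlapped, at a log2 change of 0.15 ± 0.14 that became 0.00 without input B. TUBA1B, a ubiquitous alpha-tubulin, stood at 5987 and 5488 in the inputs and 6231 and 5758 in the supernatants, again above its input in each letter, with a log2 change of 0.06 ± 0.10 that became 0.00 after recentring. TUBD1, which codes for the delta-tubulin of centrioles and has no m1A peak, had 45.0 and 43.9 in the inputs and 47.5 and 51.6 in the supernatants. Both supernatants were higher than both inputs, at 0.16 ± 0.09.

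On the lower side, TUBB6, a beta-tubulin, had 1922 and 2095 in the inputs and 1908 and 1909 in the supernatants. Its groups did not overlap, but the gap between them was 0.01 on the log2 scale, and the log2 change was -0.07 ± 0.09. TUBGCP2, a core protein of the gamma-tubulin ring, stood at 47.2 and 66.3 in the inputs and 48.8 and 53.5 in the supernatants. Input B stood apart from the other 3 values, and the log2 change of -0.13 ± 0.19 was 0.11 without it. The 4 alpha-tubulins had a median log2 change of 0.06 (-0.01 recentred, 0.05 quantile normalized, 0.15 without input A and 0.00 without input B). The 3 beta-tubulins had one of -0.06 (-0.13 without input A and 0.01 without supernatant B), and the 7 genes of gamma-tubulins and their complex one of -0.02 (-0.14 without input A and 0.10 without input B).

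Of the integrins, 6 chains were measured and none passed. ITGAV, the alpha chain of receptors for vitronectin and fibronectin, had intensities of 106 and 66.0 in the inputs and 105 and 104 in the supernatants. The 3 values other than input B were nearly equal. The log2 change of 0.32 ± 0.24 therefore rested on input B, and without it was -0.02. ITGA6, the alpha chain of laminin receptors, had 96.3 and 85.4 in the inputs and 102 and 111 in the supernatants. Both supernatants were higher than both inputs, at a log2 change of 0.23 ± 0.11 that stayed between 0.15 and 0.32 with a column left out.

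ITGAE, the alpha chain known from lymphocytes of epithelia, stood at 1905 and 2023 in the inputs and 1959 and 1947 in the supernatants, between its inputs, at -0.01 ± 0.09. ITGB5, a partner of the alpha-V chain, stood at 909 and 1134 in the inputs and 979 and 1050 in the supernatants, also between its inputs, at 0.00 ± 0.14. ITGA3, a further laminin receptor chain, had 31.8 and 54.4 in the inputs and 35.7 and 55.8 in the supernatants, so that its B columns were well above its A columns while supernatant and input of a letter were close. Its log2 change was 0.10 ± 0.35. ITGA2B, the alpha chain of the platelet fibrinogen receptor, was listed at 5.95 to 6.78 in all columns.

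The extracellular matrix was represented by 11 chains, 6 of laminins and 5 of collagens, and none passed. COL1A1, a chain of the fibrillar collagen of connective tissue, had intensities of 53.9 and 49.8 in the inputs and 65.6 and 66.9 in the supernatants. Both supernatants were higher than both inputs, by the widest gap of the 67 genes, 0.28 on the log2 scale. Its log2 change of 0.35 ± 0.09 (unadjusted p = 0.0154, limma adjusted p = 1.00) stayed between 0.30 and 0.41 with a column left out and was 0.23 with 32 added. LAMA3, the alpha chain of an epithelial laminin, had 49.5 and 45.7 in the inputs and 50.4 and 55.7 in the supernatants, apart by 0.03, at 0.16 ± 0.10.

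COL15A1, a collagen of basement membranes, had 1145 and 849 in the inputs and 1144 and 977 in the supernatants. Column A was higher in both states and nearly equal between them, and the log2 change of 0.10 ± 0.18 was -0.12 without input B. LAMC1, the gamma chain of most laminins, had 290.1 and 372 in the inputs and 308 and 357 in the supernatants, with B above A in both states and the supernatants between the inputs. Its log2 change was 0.01 ± 0.16. The remaining laminin chains LAMA1, LAMA5, LAMB1 and LAMB2 had log2 changes from 0.00 to 0.08. The remaining collagen chains COL4A5, COL8A1 and COL12A1 had log2 changes of 0.06 ± 0.09, 0.04 ± 0.28 and 0.14 ± 0.15. The median was 0.02 over the laminin chains (-0.05 recentred, -0.11 without input A and 0.15 without input B) and 0.10 over the collagen chains (0.03 recentred, 0.01 without supernatant B and 0.27 without input B).

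**Figure D2:**
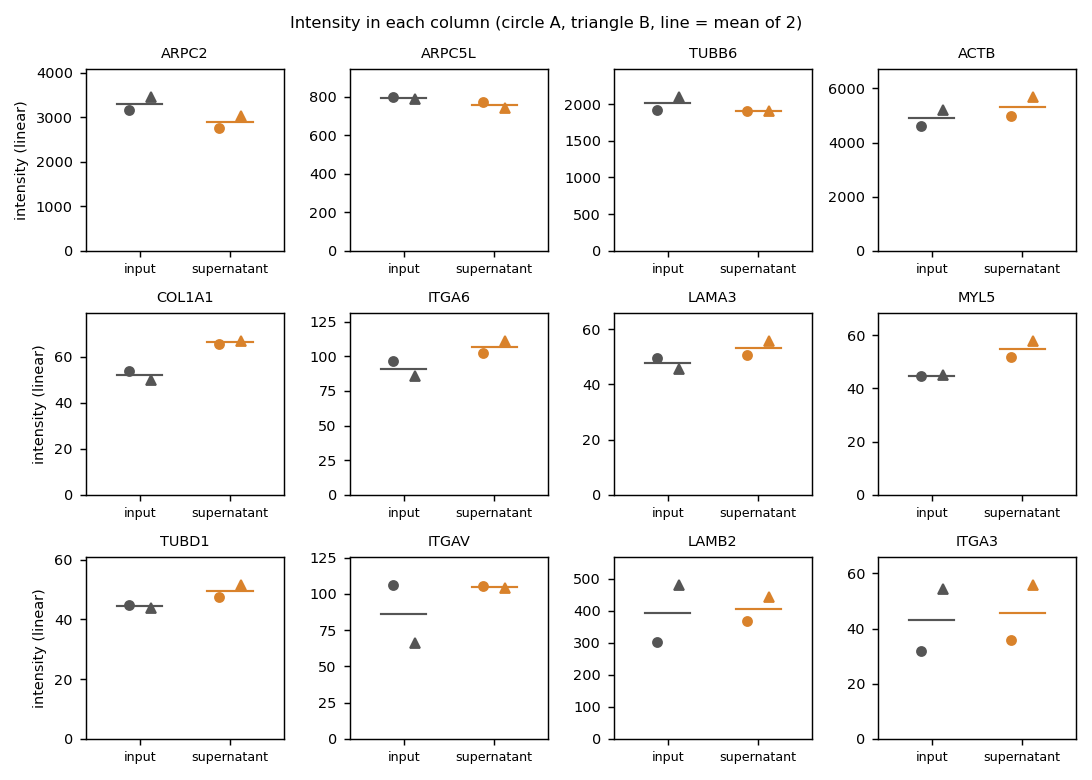
Linear intensity (vertical axis, from 0) of 12 genes in the input and supernatant columns, with circles for letter A, triangles for letter B and a line for the mean of 2. In ARPC2, COL1A1, ITGA6 and MYL5 the symbols of the 2 states do not overlap, in ITGAV input B stands alone at 66.0, and in ITGA3 and LAMB2 the triangles stand above the circles in both states.

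Cadherins and catenins gave 5 genes, and none passed. CTNNA1, the alpha-catenin that ties cadherins to actin, had intensities of 1478 and 1503 in the inputs and 1549 and 1584 in the supernatants. Both supernatants were higher than both inputs by at least 0.04 on the log2 scale, and the log2 change was 0.07 ± 0.09. CTNNAL1, a relative of alpha-catenin, had 726 and 719 in the inputs and 741 and 786 in the supernatants, also without overlap, at 0.08 ± 0.09. CTNNB1, the beta-catenin of junctions and of Wnt signalling, had 423 and 393 in the inputs and 399.6 and 408 in the supernatants, both between the inputs, at -0.01 ± 0.09. The cadherins CDH2 and CDH3 had log2 changes of 0.02 ± 0.13 and 0.03 ± 0.12.

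The lettered columns were then set side by side, as a description of how far 2 measurements of a ratio differed, since no label pairs them. The supernatant was below the input of its own letter for both letters in 8 genes, ACTN1, ACTR5, ARPC1B, ARPC2, ARPC5L, TUBB6, TUBGCP4 and VCL (11.9%, against 14.4% of all genes). It was above for both letters in 20 genes (29.9%, against 40.3%). In the other 39 genes (58.2%, against 45.3%) the letters pointed opposite ways. The widest differences of the log2 ratio, B minus A, were -1.79 in MYL10, 0.67 in ITGAV and 0.60 in MYO5A.

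Across the 64 genes at least as bright as the dimmest one-peak gene, the log2 ratios of letters A and B had a Pearson's r of -0.12 and a Spearman's rho of -0.16. Over all 5904 such genes of the table these were 0.11 and 0.06. Both are descriptions across genes, which share the same 4 columns and are not independent replicates. COL1A1 and MYL5 lay to the upper right of that comparison and ARPC2 to the lower left, while ITGAV and MYO5A were high in letter B only.

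**Figure D3:**
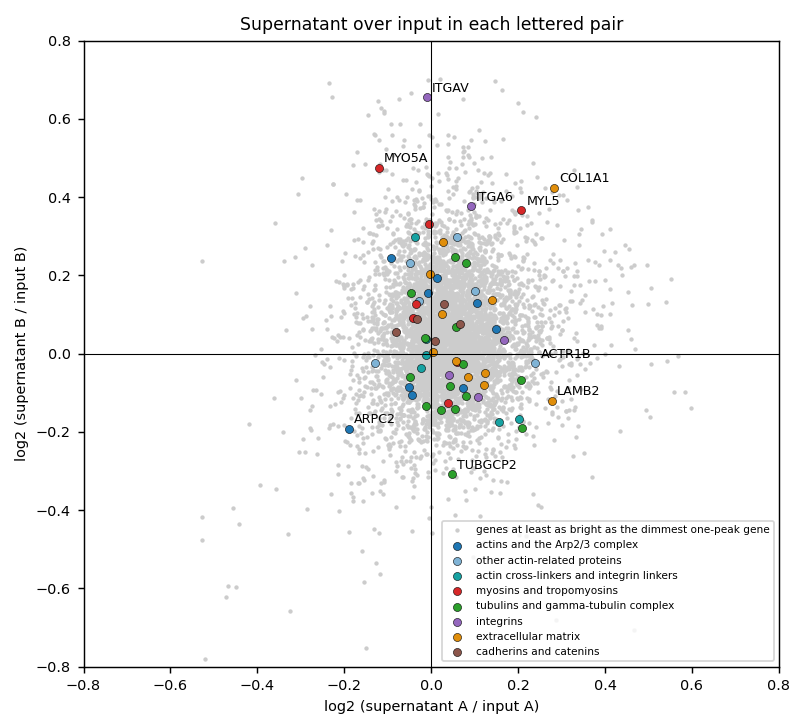
Log2 ratio of supernatant to input in letter A (horizontal axis) and letter B (vertical axis) for the 64 bright genes of the group, coloured by role, over all genes at least as bright as the dimmest one-peak gene (grey, those within 0.8 of 0 on both axes). COL1A1 stands at 0.28 and 0.42, ARPC2 at -0.19 and -0.19, and ITGAV at -0.01 and 0.66.

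The difference between letters, averaged over input and supernatant, was larger in size than the log2 change in 48 genes (71.6%, against 69.8% of all genes), with a median size of 0.13 against 0.07. Column B was above column A in both states in 34 genes (50.7%, against 35.2% of all genes) and below it in both in 13 (19.4%, against 38.6%). B was above A in both states in 6 of 6 cross-linkers and integrin linkers and in 8 of 11 matrix chains, but in 4 of 9 actins and Arp2/3 subunits and 7 of 15 tubulins.

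ITGA3 had the widest such difference among the 64 bright genes of the group, 0.71 on the log2 scale. COL8A1, a short-chain collagen, stood at 63.6 and 99.6 in the inputs and 69.3 and 96.3 in the supernatants, a letter difference of 0.56. LAMB2, the beta chain of laminins at synapses and kidney filters, stood at 302 and 481 in the inputs and 367 and 442 in the supernatants, a letter difference of 0.47. In both genes the B columns were above the A columns and the supernatants lay between the inputs. ITGAV, COL15A1 and ACTR6 had letter differences of -0.35, -0.33 and -0.28, with the A column higher in both states, in ITGAV by 0.02 only between the supernatants.

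**Figure D4:**
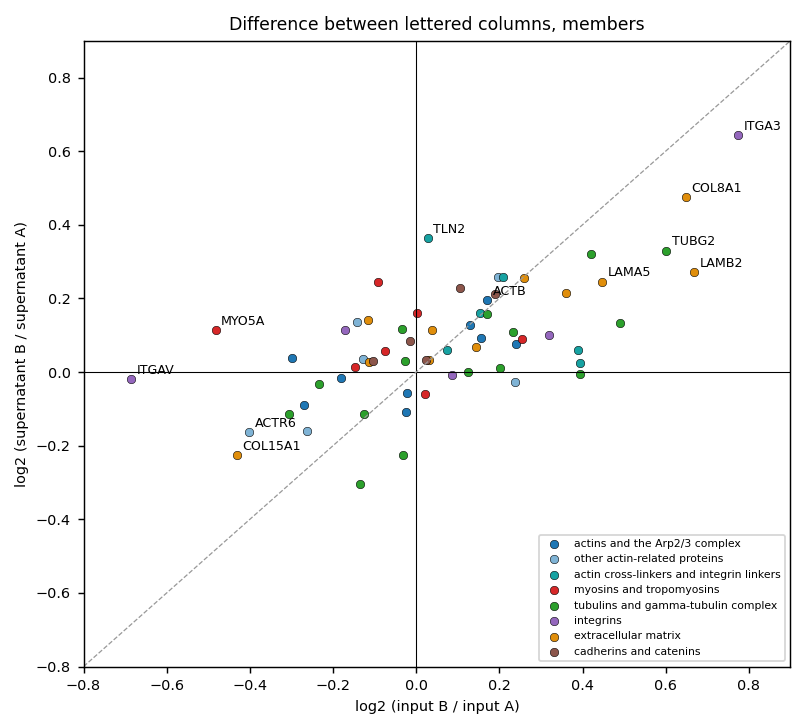
Log2 difference between columns B and A in the input (horizontal axis) and in the supernatant (vertical axis) for the 64 bright genes of the group, coloured by role; the dashed line marks equal differences. ITGA3, COL8A1, LAMB2 and TUBG2 stand at the upper right, with input differences of 0.77, 0.65, 0.67 and 0.60, and ITGAV lies at -0.69 in the input and -0.02 in the supernatant.

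The last question was what fraction of each transcript carried m1A. In the authors' deposited table the 60 one-peak genes of the group had a median methylated fraction of 0.21 with quartiles of 0.17 and 0.23, the same 3 values as over all 5210 one-peak genes. To obtain the authors' deposited fraction, the ratios of supernatant to input in A and B are averaged, scaled down by 1.29 (the average ratio among non-m1A genes) and subtracted from 1. The lowest authors' deposited fraction over all one-peak genes was 0, so a fraction near 0 is at the end of that list. The highest log2 change was 0.37 among the one-peak genes and 4.84 among the non-m1A genes. COL1A1 and ITGAV, at 0.35 and 0.32, stood near that end of the one-peak list. Whether one-peak genes with higher ratios had been left out of the list was not tested. Shares and quartiles over all genes carry the same limit.

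The highest fraction of the group in the authors' deposited table was 0.32, in ARPC2. Without the divisor, ARPC2 had a fraction of 0.123 from letter A and 0.124 from letter B. TUBGCP2 followed with 0.29 in the authors' deposited table, but without the divisor its letters gave -0.0332 and 0.193. The lowest, 0.01, were those of COL1A1 and ITGAV in the authors' deposited table. Next in the authors' deposited table were ITGA6 at 0.09, MYO5A at 0.11 and ACTR6 at 0.12.

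By role, the 9 actin and Arp2/3 genes had a median of 0.18 in the authors' deposited table, from 0.16 to 0.32. Within this role, the authors' deposited fractions were 0.23 to 0.32 in the 4 ARPC subunits. They were 0.16 to 0.18 in the 5 genes ACTB, ACTG1, ACTR2, ACTR3 and ACTR3B. That is the split made above with the values known, and the fractions are computed from the same ratios. Medians in the authors' deposited table were 0.17 in the integrins and in the other actin-related proteins, 0.19 in the matrix chains and 0.23 in the cross-linkers and integrin linkers. The 14 one-peak tubulin genes had a median of 0.225 in the authors' deposited table, from 0.14 in TUBA1A to 0.29 in TUBGCP2. Cadherins and catenins ranged from 0.18 to 0.23 in the authors' deposited table. Among these, CTNNB1 had 0.23 and CTNNAL1 0.18.

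Without the divisor, the median over the 60 genes was -0.0194. A fraction below 0, that is, a mean supernatant/input ratio above 1, was found in 42 of them (70.0%, against 68.4% of all one-peak genes). Such a mean ratio can arise without a higher mean intensity in the supernatants, as in ITGB5 and TUBB2A. Below 0 were all 11 matrix chains and the 5 genes ACTB, ACTG1, ACTR2, ACTR3 and ACTR3B, and above 0 the 4 ARPC subunits. Some lay close to 0, as LAMB1 at -0.0028 and ARPC1A at 0.0031 (-0.0528 and 0.0590 by letter). In 6 of the 11 matrix chains the letters pointed opposite ways. A divisor of 1.05 is the average ratio of the 694 non-m1A genes at least as bright as the dimmest one-peak gene. With it, the median over the 60 genes was 0.0304. The sign then changed in LAMB1, to 0.0462, and medians were 0.0063 in the matrix chains, -0.0233 in those 5 genes and 0.0948 in the ARPC subunits. Between letters, the median gene of the group differed by 0.105 on the scale without a divisor, against 0.0765 over all one-peak genes. The deposited quartiles of the group lie closer together than 0.105, but they are on the scale with the divisor of 1.29, where differences between letters are smaller. They also describe means over both letters.

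**Figure D5:**
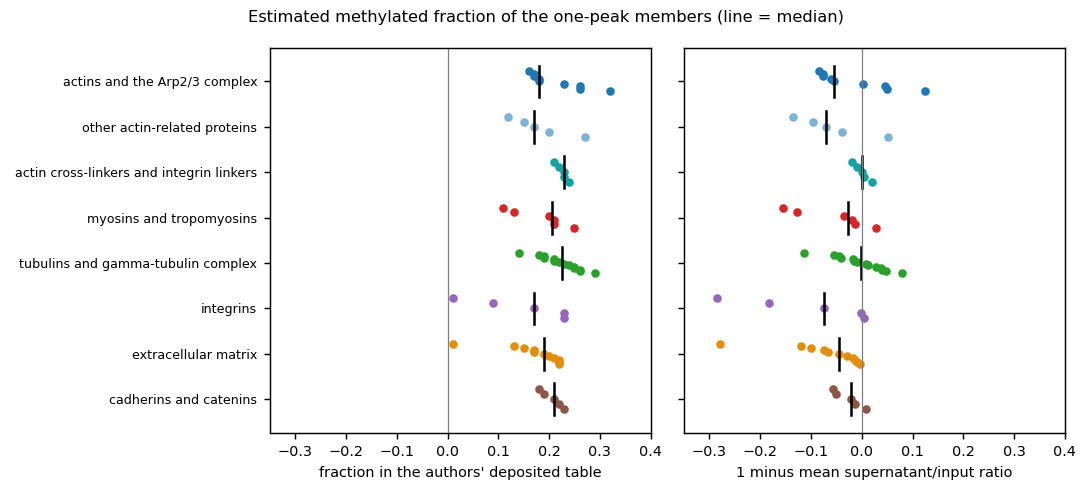
Estimated methylated fraction (horizontal axes, no unit) of the 60 one-peak genes by role, with a line at each median. The left panel gives the authors' deposited fractions, from 0.01 to 0.32, and the right panel 1 minus the mean supernatant/input ratio, where 42 points lie below 0.

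Other genes of the same pathways were taken from 6 lists with 126 genes, of which 49 were measured. None of the 49 passed in either direction, and their median log2 change was 0.06. Groups did not overlap in 1 of them on the lower side (6.37% of all genes) and 8 on the higher side (16.6% of all genes). PFN1 codes for profilin, which loads actin monomers onto filaments, and had intensities of 2632 and 2867 in the inputs and 3193 and 3369 in the supernatants, higher in both supernatants. Its log2 change was 0.26 ± 0.10 and its fraction in the authors' deposited table was 0.08. VASP, which speeds filament growth, had 135 and 137 in the inputs and 153 and 174 in the supernatants, a log2 change of 0.26 ± 0.10. Of the focal adhesion genes, the kinase PTK2 had 242 and 213 in the inputs and 257 and 269.7 in the supernatants, at 0.21 ± 0.11, and GIT2 was at 0.15 ± 0.10.

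Of the matrix regulators, the protease inhibitor TIMP3 had 282 and 286 in the inputs and 329 and 322 in the supernatants, at 0.20 ± 0.09, and the collagen-modifying P4HB was at 0.08 ± 0.16. DCTN5 and DCTN4, subunits of dynactin like ACTR1A, had log2 changes of 0.22 ± 0.11 and 0.16 ± 0.13. The junction genes JUP and F11R were at 0.10 ± 0.17 and 0.07 ± 0.16. The nuclear lamin LMNB1 had 189 and 171 in the inputs and 169 and 141 in the supernatants. Both its supernatants were below both its inputs, at a log2 change of -0.22 ± 0.13 and a fraction of 0.34 in the authors' deposited table, and the keratin KRT8 was at 0.06 ± 0.13.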

How the data were processed

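The 4 columns of linear intensities per gene (2 inputs, 2 supernatants) were analysed as deposited by the authors, with no offset or filter. Per the submitters' processing notes RMA was run, version not given. The steps behind these deposited intensities were not given in the sources used here. The fraction and ratio columns were also deposited by the authors. Recomputed from the intensities, the corrected ratio came within 0.0052 of the deposited ratio in every one-peak gene. The table of log2 values per probe set was not used because its probe sets have no gene names here.

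Log2 intensities of all 6434 genes were fitted without pairing (lmFit, then eBayes, of limma 3.58.1, under R 4.3.3), and p-values were adjusted by Benjamini-Hochberg over all of them. The script was tested on simulated data. Tables and plots were made with Python 3.11.15 (matplotlib 3.10.9, NumPy 2.4.6, SciPy 1.17.1 and pandas 2.3.3). The genes, their grouping by role and the lists of other genes and markers were chosen with earlier results of these data known. Of the 67 genes, 2 are counted but not reported singly. Column values are given for 32: in each role the 2 largest moderated statistics, the brightest gene and the highest and lowest fraction, and over all roles gaps of at least 0.25 and the 3 widest letter differences of the ratio. ARPC5L, TUBB6, COL8A1, LAMB2 and ITGA3 were added after their values were seen. Other genes were named by the 2 largest statistics per list. Alternatives covered a replicate block, an offset of 32, scaling, brightness, a trended prior, divisors and each column left out.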

Additional observations from a re-analysis of the deposited data

How the results depend on the processing

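None of the 67 genes passed under those of the 10 alternatives of the test that kept all 4 columns, where the lowest adjusted p was 0.80 (limma). With a column left out, 1 group holds a single column, and only sizes of change are given. MYL10, dim at intensities of 1.6 to 5.52, had log2 changes of 1.14 without input B and -0.647 without input A. With the letter as a replicate block, 0 passed at a lowest adjusted p of 0.80 (COL1A1, unadjusted p = 0.0103, limma), and 3 against 2 were under an unadjusted p of 0.05, as were 5.70% against 2.02% of all genes. Deviations of same-lettered columns correlated at 0.451 over all genes. The correlation was 0.698 over the 5904 bright genes of the table and 0.647 over the 64 bright genes of the group. With 2 letters this does not show that the columns were paired.

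The median log2 change of 0.04 was 0.0238 with 32 added, -0.0289 recentred, 0.000642 quantile normalized and -0.0114 to 0.0832 with a column left out, the lowest without input A and the highest without input B. Genes lower in both supernatants numbered 9 recentred (17.2% of all genes). With a column left out they ran from 6 without supernatant A (18.6% of all genes) to 25 without input A (28.0% of all genes). Genes of the group higher in both numbered 4 recentred (6.71% of all genes) and 5 quantile normalized (9.11% of all genes). With a column left out these ran from 16 without supernatant B (37.3% of all genes) to 36 without input B (43.6% of all genes). There 1 column faces 2 and non-overlap comes more easily. The median fraction of 0.21 was -0.0194 without a divisor, 0.0319 with the median and 0.0304 with the bright mean ratio of the non-m1A genes, and 0.208 from either letter alone. The input percentile was 60.6 to 64.1 with an input left out.

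Of 32 genes with column values by rule, 12 kept their sign under all 10 alternatives and 20 did not. Recentring turned ACTR10 to -0.0129, LAMC1 to -0.0550, MYL12B to -0.0421, PXN to -0.0498 and TUBA1B to -0.00360 on the log2 scale. Quantile normalization turned LAMC1 to -0.0211, MYL10 to -0.181 and PXN to -0.0284. With a column left out, the log2 change ran from its lowest without input A to its highest without input B in ITGAE (-0.0505 to 0.0359), ITGB5 (-0.162 to 0.157), LAMC1 (-0.168 to 0.192), MYL10 (-0.647 to 1.14), MYO5C (-0.171 to 0.0835), PXN (-0.180 to 0.214), TUBGCP2 (-0.376 to 0.114) and VCL (-0.0671 to 0.00710). It ran from its lowest without input B to its highest without input A in ACTG1 (-0.0161 to 0.164), ACTR10 (-0.00993 to 0.118), ACTR5 (-0.209 to 0.0549), ACTR6 (-0.0222 to 0.380), COL15A1 (-0.115 to 0.316), CTNNB1 (-0.0656 to 0.0388), ITGAV (-0.0199 to 0.666), MYL12B (-0.0127 to 0.0624), MYO5A (-0.0639 to 0.419) and TUBA1A (-0.00225 to 0.305). In TLN2 (-0.0511 to 0.312) the lowest was without supernatant B and the highest without supernatant A. The cause of these turns was not tested, and the number of arrays and the spread between columns limit every value.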
